A study of Mus musculus with 6 samples.

Results

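The unfolded protein response and the amino acid stress response were examined in mammary tumours from MMTV-PyMT+ female mice through 36 genes chosen for their known roles: 10 endoplasmic reticulum (ER) chaperones and folding enzymes, 5 XBP1 targets of ER-associated degradation, 7 stress sensors and transcription factors, and 14 ATF4 targets. All 36 had a probe set that the platform annotation assigns to that gene alone, of 19938 genes so named on the array, and 35 of the 36 passed a filter on dim genes, as did 14953 genes in all. Where a gene had several probe sets, the one that was brightest on average over the 6 arrays stands for it. The genes, and the further lists used below, were chosen with earlier results of these data known. RNA came from 6 tumours of FVB mice aged 15 weeks, 3 from animals injected into the peritoneum with DPM at 10 mg/kg and 3 from animals injected with vehicle. Both arms carried the PyMT transgene, in which the MMTV promoter drives polyoma middle T antigen in mammary epithelium, and both were dosed from 4 weeks of age for 11 weeks, 5 days on and 2 days off. The labels give only the abbreviation DPM, which is taken, from knowledge of the study, to be dipyridamole, a drug that blocks nucleoside uptake and phosphodiesterases. The tumours came from arms of 10 (DPM) and 7 (vehicle) mice. The labels call the arrays of a group biological replicates without saying which mouse each tumour came from, so p-values measure the spread between these tumours.

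Sensors in the ER membrane report misfolded protein. IRE1, encoded by Ern1, splices the Xbp1 mRNA into the form that encodes an active transcription factor. ATF6 is cut in the Golgi to release a transcription factor that, with XBP1, drives chaperone genes. PERK, encoded by Eif2ak3, phosphorylates the initiation factor eIF2, which slows translation but favours that of ATF4, and other kinases do the same when amino acids run short. ATF4 then drives amino acid transport and synthesis genes and, under lasting stress, Ddit3 and Trib3. Secretory epithelium such as that of the mammary gland is known for a high load of protein entering the ER. Much of this response works through splicing, cleavage and phosphorylation, which intensities of whole genes do not measure; in particular, 1 probe set does not separate spliced from unspliced Xbp1 mRNA.

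Different response elements were found in promoters of the ER chaperone and ATF4 arms, in 5 of the 10 chaperone genes and 7 of the 14 ATF4 targets. These are shown first because the arms are described separately below. RefSeq promoter windows (GRCm38.p6, 250 bases before to 50 after each annotated start) were found for 32 of the 36 genes, in 34 windows. The totals of 10 and 14 above include any gene of those arms that had no window to search. Both strands were searched for exact letters. The ER stress response element (CCAAT, 9 bases of any kind, then CCACG), which ATF6 and XBP1 are known to use, was in the windows of 6 member genes, 5 of them chaperones, and in 0.119% of all 32851 windows. In the sequences below, written 5′ to 3′ on the gene's strand, capitals mark the fixed letters of the element; where it lies on the opposite strand it reads CGTGG, a spacer and ATTGG. Positions count from the start site, with the base before it as -1.
Hspa5 (chr2:34772015-34772053, plus strand, element at -65 to -47): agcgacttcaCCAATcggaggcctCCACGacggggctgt
Hsp90b1 (chr10:86705628-86705666, minus strand, -212 to -194): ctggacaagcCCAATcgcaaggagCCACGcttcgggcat
Hsp90b1 (chr10:86705523-86705561, minus strand, -107 to -89): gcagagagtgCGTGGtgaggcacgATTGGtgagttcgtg
Pdia6 (chr12:17266481-17266519, plus strand, -98 to -80): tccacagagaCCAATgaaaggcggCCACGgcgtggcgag
Dnajc3 (chr14:118937817-118937855, plus strand, -105 to -87): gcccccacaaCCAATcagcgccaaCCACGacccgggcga
Creld2 (chr15:88819510-88819548, plus strand, -126 to -108): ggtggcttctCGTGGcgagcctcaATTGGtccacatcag
Syvn1 (chr19:6046522-6046560, plus strand, -44 to -26): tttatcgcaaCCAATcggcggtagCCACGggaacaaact

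The 250 bases before the start of Hspa5, the gene of the main ER chaperone BiP, are printed as the wider setting of 1 such element (chr2:34771840-34772089, plus strand).
Hspa5: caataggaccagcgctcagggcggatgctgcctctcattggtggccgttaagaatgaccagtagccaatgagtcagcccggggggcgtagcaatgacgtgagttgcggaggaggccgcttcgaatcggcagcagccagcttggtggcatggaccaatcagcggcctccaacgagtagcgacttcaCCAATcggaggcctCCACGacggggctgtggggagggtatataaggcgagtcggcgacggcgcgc

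The shorter part CCACG by itself was in the windows of 25 member genes, and also in 32.8% of all windows. The unfolded protein response element TGACGTGG, whose last letters CGTGG are CCACG read on the other strand, was in the windows of 0 members and 0.676% of all windows.

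The C/EBP-ATF response element, TGATGNAAN, through which ATF4 is known to act, was in the windows of 9 member genes and in 3.95% of all windows. Of these 9 genes, 7 were ATF4 targets, and the others were Atf3 and Herpud1; 0 were chaperones. Where it lies on the opposite strand, its reverse complement is printed. The matches of 6 genes are printed to show both orientations, with the fixed letters in capitals.
Asns (chr6:7693214-7693242, minus strand, -23 to -15): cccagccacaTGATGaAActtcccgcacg
Slc7a11 (chr3:50443661-50443689, minus strand, -66 to -58): ctcatgtggcTGATGcAAacctggagaat
Slc7a11 (chr3:50443643-50443671, minus strand, -48 to -40): acctggagaatTTgCATCAtcatgcagcc
Chac1 (chr2:119351038-119351066, plus strand, -194 to -186): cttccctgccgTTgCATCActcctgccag
Nupr1 (chr7:126625563-126625591, minus strand, -111 to -103): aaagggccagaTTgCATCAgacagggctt
Atf3 (chr1:191183426-191183454, minus strand, -111 to -103): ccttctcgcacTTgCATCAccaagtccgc
Herpud1 (chr8:94386306-94386334, plus strand, -113 to -105): accacggcgggTTgCATCAgcccgcaccc

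None of the 35 members that passed the filter was called between DPM and vehicle tumours, where 0 of 14953 genes were called (limma, Benjamini-Hochberg adjusted p under 0.05; percent called 0). At an unadjusted limma p under 0.05 there was 1 member, Ern1, against 578 genes in all (3.87%). The values of the 2 groups did not overlap for 3 members, Ern1, Pdia4 and Psph, each lower in DPM; over all genes 6.97% did not overlap, 3.48% being lower and 3.49% higher in DPM. The adjusted p of each of the 35 members was 1 after rounding in the limma fit. The 95% interval of the difference, DPM minus vehicle on the log2 scale, lay within 1 unit of 0 for 35 of the 35, and for 97.9% of all genes tested. The lowest lower bound of a member was -0.86, for Ern1, and the highest upper bound 0.73, for Herpud1.

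**Figure D1:**
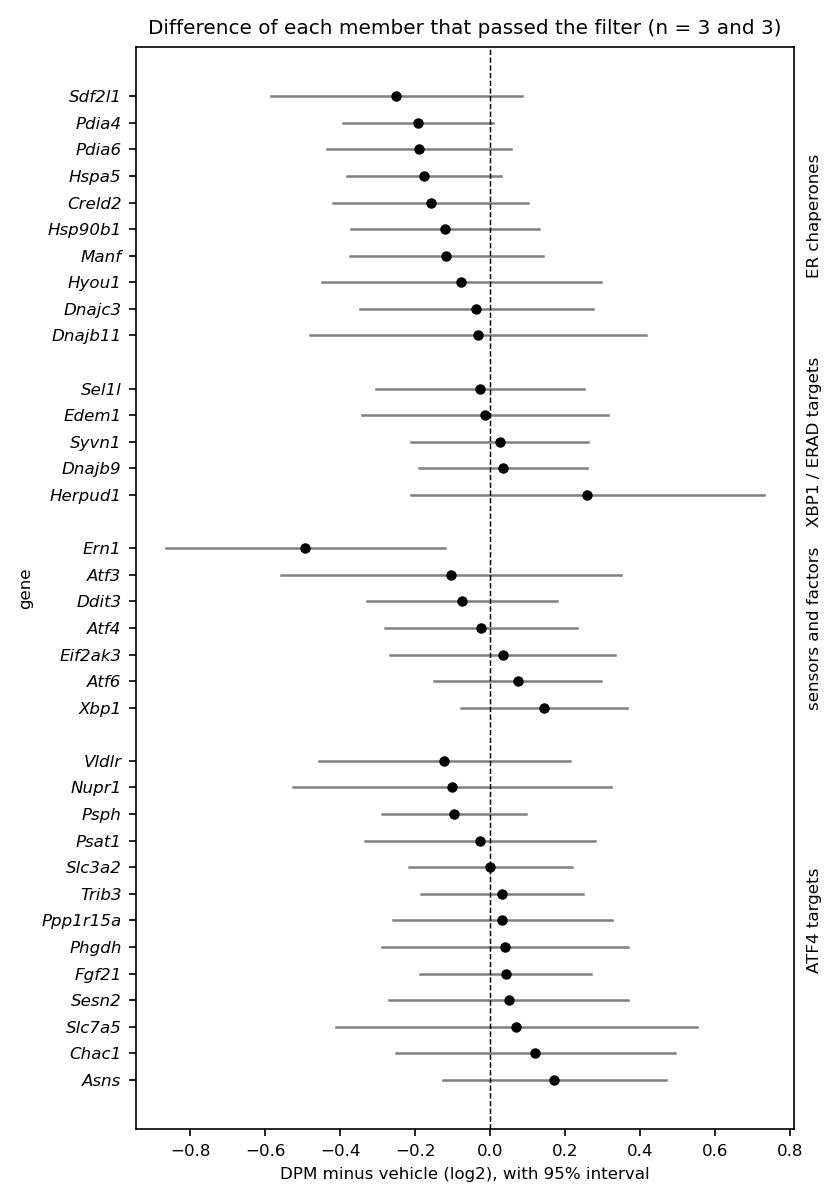
DPM minus vehicle difference of each of the 35 members that passed the filter (log2, horizontal axis; points) with its unadjusted 95% interval (bars), by arm, 3 arrays per group. All 10 chaperones lie left of 0, and the interval of Ern1 alone leaves out 0.

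Among the sensors, Ern1 had the largest difference of any member. Ern1 measured 9.94, 9.97 and 9.88 (log2 intensity) on DPM arrays 1 to 3 and 10.41, 10.09 and 10.77 on vehicle arrays 1 to 3. The 3 DPM values were close together and below all 3 vehicle values, which were spread. The means were 9.93 ± 0.04 and 10.42 ± 0.34 (SD, n = 3 each), a difference of -0.49 (SE 0.16), or 0.711 times the vehicle level with an interval of 0.549 to 0.919. Its unadjusted limma p was 0.0156 and its adjusted p 1. Without vehicle replicate 3, which had the highest value, the difference was -0.32, and it was -0.29 when both arrays numbered 3 were left out.

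The other sensors differed by less than their standard errors. Atf6 measured 10.08, 10.17 and 10.08 on the DPM arrays, against 10.19, 9.95 and 9.96 on the vehicle arrays, a difference of 0.07 (SE 0.10). Eif2ak3 measured 9.53, 9.86 and 9.67 on the DPM arrays, against 9.83, 9.45 and 9.70 on the vehicle arrays, a difference of 0.03 (SE 0.13). The groups overlapped for both genes. A change of Ern1 relative to that of Atf6 or Eif2ak3 was not tested.

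Xbp1, the transcript that IRE1 processes, measured 13.63, 13.67 and 13.69 on the DPM arrays, against 13.72, 13.44 and 13.39 on the vehicle arrays. Vehicle replicate 1 was the highest array of all and the other vehicle arrays the lowest, so that the groups overlapped. The difference was 0.14 (SE 0.10), with an interval of -0.08 to 0.37, and was 0.25 without vehicle replicate 1 and 0.08 without vehicle replicate 3. Its sign was opposite to that of Ern1, and neither difference was called (limma adjusted p = 1).

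The transcription factors of the PERK arm had differences close to 0. Atf4 measured 9.18, 9.52 and 9.32 on the DPM arrays, against 9.45, 9.36 and 9.29 on the vehicle arrays, a difference of -0.02 (SE 0.11). Ddit3, whose product CHOP is linked to cell death under ER stress, measured 8.37, 8.61 and 8.41 against 8.60, 8.63 and 8.39, a difference of -0.08 (SE 0.11). The DPM and vehicle values of both genes were interleaved. Atf3, a stress-induced repressor, varied more than these, with 9.51, 9.16 and 9.81 on the DPM arrays, against 9.66, 9.28 and 9.86 on the vehicle arrays. Its lowest array in each group was replicate 2 and its highest replicate 3, and its difference was -0.10 (SE 0.20), turning to 0.06 with DPM replicate 2 left out and 0.03 with vehicle replicate 3 left out. Over the 7 genes of this arm, 3 had the higher and 4 the lower mean in DPM, with a median difference of -0.02, beside 0.00 over all genes tested.

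All 10 ER chaperones and folding enzymes had the lower mean in DPM tumours, where 49.7% of all genes tested did and 50.3% had the higher mean. Their median difference was -0.14 and their range -0.25 to -0.03, and 0 of the 10 passed the limma threshold. Several marker lists of other cells also had 1 sign among their genes that passed the filter. Of macrophage markers, 9 of 9 (median -0.19) had the lower mean in DPM, as did 8 of 8 fibroblast markers (-0.31). So did 6 of 6 basal epithelial markers (-0.43) and 3 of 3 T cell markers (-0.07). On the higher side were 9 of 9 alveolar (0.18), 4 of 4 skeletal muscle (0.09) and 3 of 3 adipocyte markers (0.13). Below the filter, the adipocyte genes Adipoq (-0.14) and Lep (-0.02) had the lower mean and the T cell gene Cd3d (0.01) the higher. Cd3g, Cd2 and Mylpf, also below the filter, had the sign of their list. The value on vehicle replicate 3 was the highest of the 6 arrays for each of the 10 chaperone genes. On vehicle replicate 2, in contrast, 1 of the 10 was above its own mean over the arrays, the same number as on DPM replicate 2.

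Hspa5, encoding the ER chaperone BiP, measured 12.72, 12.60 and 12.68 on the DPM arrays, against 12.89, 12.69 and 12.95 on the vehicle arrays. Vehicle replicate 2 fell inside the DPM range. The difference was -0.18 (SE 0.09), or 0.885 times the vehicle level, with an interval of 0.767 to 1.02 (limma adjusted p = 1). Hsp90b1, encoding the ER member of the HSP90 family, measured 12.07, 12.10 and 12.29 on the DPM arrays, against 12.21, 12.15 and 12.47 on the vehicle arrays, a difference of -0.12 (SE 0.11). With DPM replicate 3 left out it was -0.19, and with vehicle replicate 3 left out -0.02.

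The protein disulfide isomerase gene Pdia4 measured 12.20, 12.02 and 11.96 on the DPM arrays, against 12.21, 12.25 and 12.31 on the vehicle arrays. The groups did not overlap, but DPM replicate 1 and vehicle replicate 1 differed by little. The difference was -0.19 (SE 0.09), and a second, dimmer probe set of Pdia4 gave 0.09; averaged over both it was -0.05. Pdia6, of the same family, measured 10.66, 10.44 and 10.51 against 10.67, 10.61 and 10.89, a difference of -0.19 (SE 0.11). Its vehicle replicate 2 lay below DPM replicate 1, and with vehicle replicate 3 left out the difference was -0.11. Dnajc3 has a second probe set, which holds the same values on every array.

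Sdf2l1, a partner of BiP, had the largest difference of the arm and is named for that, after its values were seen. It measured 10.83, 10.67 and 10.98 on the DPM arrays, against 11.09, 10.80 and 11.33 on the vehicle arrays, a difference of -0.25 (SE 0.14). In both groups replicate 2 was the lowest and replicate 3 the highest array. The groups overlapped, and without vehicle replicate 3 the difference was -0.12. The secreted ER proteins Creld2 and Manf differed by -0.16 (SE 0.11) and -0.12 (SE 0.11). The differences of the co-chaperone genes Dnajb11 (-0.03, SE 0.19) and Dnajc3 (-0.04, SE 0.13), and of Hyou1 (-0.08, SE 0.16), which helps BiP exchange nucleotide, were smaller than their standard errors.

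The chaperone count rested in part on single arrays. Without vehicle replicate 3 the median difference was -0.06 and 7 of 10 genes were lower, and without DPM replicate 1 it was -0.14 with 7 of 10 lower. Without vehicle replicate 2 the median was -0.21 and 10 of 10 were lower. Without both arrays numbered 3 it was -0.09 with 8 of 10 lower.

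**Figure D2:**
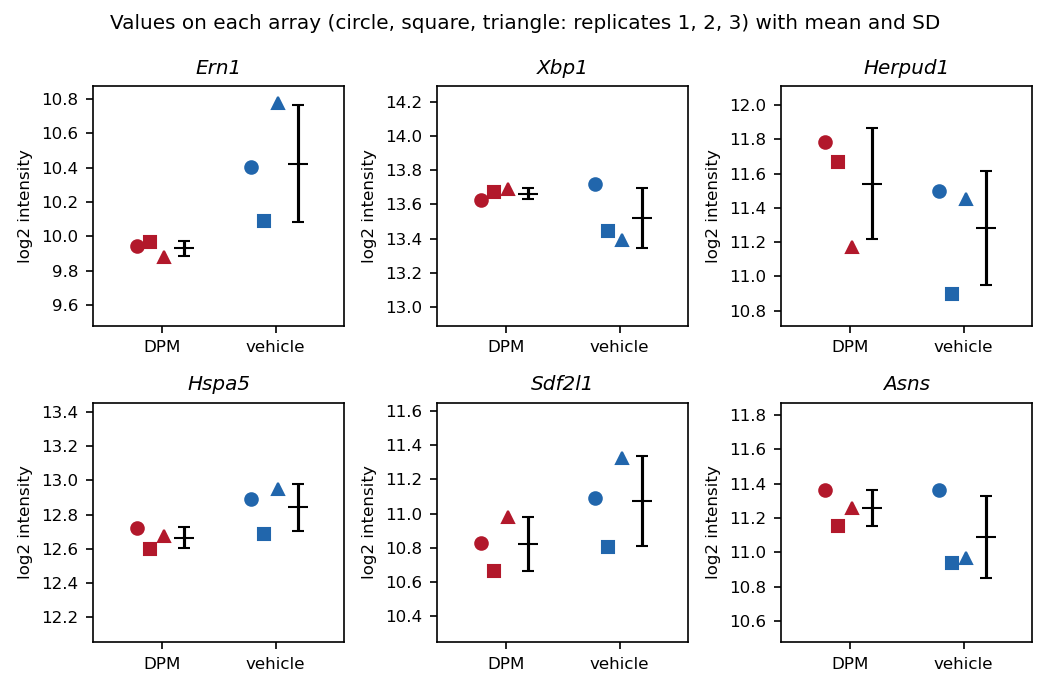
Log2 intensity of 6 members on each array (vertical axis; red DPM, blue vehicle; circle, square and triangle for replicates 1, 2 and 3), with the mean and SD of each group (black, n = 3). Each panel spans the same number of log2 units but has its own range. The Ern1 values do not overlap between groups, and those of the other 5 genes do.

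The XBP1 targets that act in ER-associated degradation, by which misfolded proteins leave the ER for the proteasome, did not share the sign of the chaperones. Of the 5 genes, 3 had the higher and 2 the lower mean in DPM, with a median difference of 0.02 and 0 called. Herpud1, encoding a membrane protein of the degradation complex, measured 11.78, 11.67 and 11.17 on the DPM arrays, against 11.50, 10.90 and 11.45 on the vehicle arrays. DPM replicate 3 and vehicle replicate 2 were the low arrays, and the groups overlapped. The difference was 0.26 (SE 0.20). It was 0.07 without vehicle replicate 2, 0.14 without DPM replicate 1 and 0.44 without DPM replicate 3.

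Dnajb9, a co-chaperone gene induced through XBP1, measured 10.84, 10.74 and 10.63 on the DPM arrays, against 10.75, 10.57 and 10.80 on the vehicle arrays, a difference of 0.03 (SE 0.10). Syvn1, the gene of the ubiquitin ligase HRD1, measured 10.57, 10.68 and 10.63 against 10.79, 10.50 and 10.50, a difference of 0.02 (SE 0.10). The groups of both genes overlapped widely. Sel1l, the partner of HRD1, differed by -0.03 (SE 0.12), and the lectin gene Edem1 by -0.01 (SE 0.14). Vehicle replicate 2 was the lowest of the 6 arrays for 4 of these 5 genes. Without it, 4 of the 5 had the lower mean in DPM and the median was -0.04; without vehicle replicate 1, 5 of 5 were higher, with a median of 0.05. The median was 0.08 without vehicle replicate 3 and 0.01 with neither array numbered 3.

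The ATF4 targets were centred near 0. Of the 13 that passed the filter, 9 had the higher and 4 the lower mean in DPM (the 9 include Slc3a2, whose difference was 0.00), with a median difference of 0.03 and a range of -0.12 to 0.17, and 0 were called. The fourteenth, Slc7a11, encoding the cystine transporter, was below the filter and was not tested. It measured 7.15, 7.29 and 6.81 on the DPM arrays, against 7.34, 6.95 and 6.96 on the vehicle arrays, with the groups overlapping.

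Among genes of amino acid synthesis, Asns, encoding asparagine synthetase, had the largest difference of the arm. It measured 11.36, 11.16 and 11.26 on the DPM arrays, against 11.36, 10.94 and 10.96 on the vehicle arrays. Vehicle replicate 1 matched the highest DPM array, and the other vehicle arrays lay below all DPM arrays. The difference was 0.17 (SE 0.13), with an interval of -0.13 to 0.47, and was 0.31, 0.09 and 0.11 without vehicle replicates 1, 2 and 3 in turn.

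The serine synthesis enzymes had small differences. Psph, of the last step, measured 8.80, 8.76 and 8.80 on the DPM arrays, against 8.95, 8.86 and 8.84 on the vehicle arrays, a difference of -0.10 (SE 0.08). Its groups did not overlap, by a narrow gap, and its limma adjusted p was 1. Phgdh and Psat1, of the earlier steps, differed by 0.04 (SE 0.14) and -0.03 (SE 0.13), both within their standard errors, so that no sign is called.

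The 2 chains of the large neutral amino acid transporter were unequal in spread. Slc3a2, the heavy chain, had a mean of 13.14 in both groups. Slc7a5, the light chain LAT1, had SDs of 0.18 in DPM and 0.45 in vehicle tumours, with 13.15 on vehicle replicate 1 and 12.26 on vehicle replicate 2, and differed by 0.07 (SE 0.21).

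Of the stress-induced regulators, Trib3, a pseudokinase that restrains ATF4, measured 8.85, 9.03 and 8.98 on the DPM arrays, against 8.99, 8.84 and 8.92 on the vehicle arrays, a difference of 0.03 (SE 0.09). Chac1, which breaks down glutathione, differed by 0.12 (SE 0.16). Ppp1r15a, encoding the GADD34 subunit that restores translation, differed by 0.03 (SE 0.13) and Sesn2, a leucine sensor gene, by 0.05 (SE 0.14). The lipoprotein receptor gene Vldlr measured 10.37, 9.98 and 10.43 against 10.52, 10.19 and 10.43, a difference of -0.12 (SE 0.14), or 0.02 with DPM replicate 2 left out. Nupr1, encoding a stress-induced nuclear protein, differed by -0.10 (SE 0.18), with its highest value, 11.40, on vehicle replicate 1. Fgf21, a hormone gene, passed the filter narrowly and differed by 0.04 (SE 0.10).

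The sign of this arm rested on single arrays. Vehicle replicate 1 was the highest array for 9 of the 13 genes and vehicle replicate 2 the lowest for 9 of 13. Without vehicle replicate 2, 10 of 13 had the lower mean in DPM and the median was -0.09; without vehicle replicate 1, 11 of 13 had the higher mean and the median was 0.10. Without DPM replicate 2 the split was 6 higher and 7 lower, and the median was -0.0010. The median was 0.02 without DPM replicate 3, 0.05 without DPM replicate 1 and 0.00 with neither array numbered 3.

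**Figure D3:**
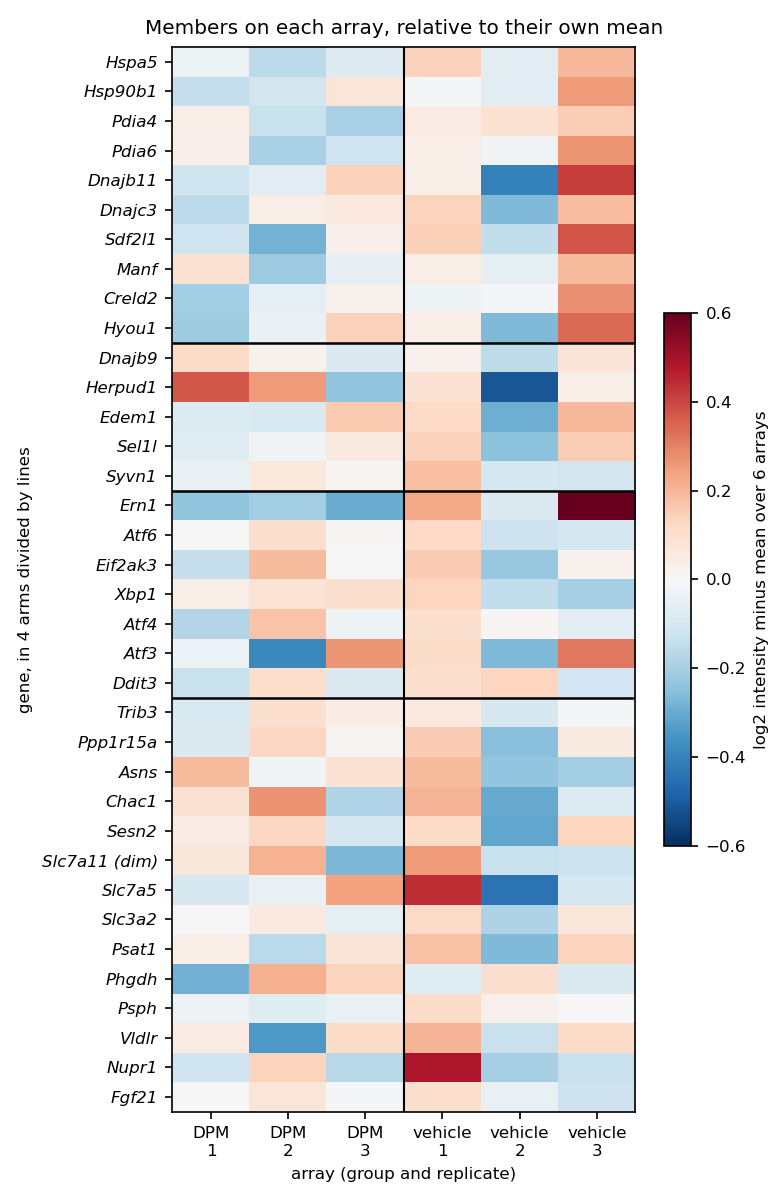
Log2 intensity of the 36 members minus each gene's mean over the 6 arrays (colour scale, red above and blue below the mean), with arrays in columns and genes in rows, the 4 arms divided by lines. Slc7a11, marked dim, was below the filter. The top block is reddest on vehicle replicate 3, and the bottom block is mostly red on vehicle replicate 1 and mostly blue on vehicle replicate 2.

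Grouped by response element, the 6 genes with an ER stress response element had a median difference of -0.14, with 5 lower and 1 (Syvn1) higher. The 8 genes with a C/EBP-ATF element that passed the filter, which leaves out Slc7a11, had a median of 0.04, with 5 higher and 3 lower and a range of -0.12 to 0.26. Most genes with an element belong to the chaperone or the ATF4 arm, so these medians are not independent of the arm medians. They cover only part of each arm.

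The spread within the vehicle group was wider than within the DPM group for 28 of the 35 members (80.0%), against 50.9% of all genes tested. Among the other genes of these pathways, described below, the same held for 70 of 128 (54.7%). By list their share ran from 40.9% of the other folding genes to 80.0% of the translocon, signal peptidase and signal recognition genes. All these genes were read on the same 3 arrays per group, and many rose and fell together. They are therefore not separate observations of spread, and a difference in spread between the groups was not tested. The median SD of a member was 0.12 on the DPM arrays, against 0.18 on the vehicle arrays, where all genes had medians of 0.12 and 0.13. Scores, in which every gene of a list is centred on its own average and the list is then averaged on each array, show where that spread lay. Over all measured members the score was -0.04, -0.01 and 0.00 on DPM arrays 1 to 3 and 0.12, -0.16 and 0.09 on vehicle arrays 1 to 3. The DPM scores lay between the lowest and the highest vehicle score.

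The chaperones ordered the vehicle arrays differently from the other 3 arms, which were highest on replicate 1 and lowest on replicate 2. The chaperone score was 0.06, -0.12 and 0.26 on vehicle arrays 1 to 3, with replicate 3 highest, and -0.08, -0.12 and 0.00 on the DPM arrays. The ATF4 target score was 0.18, -0.18 and -0.02 on the vehicle arrays, with replicate 1 highest, and -0.02, 0.03 and 0.01 on the DPM arrays. The score of the degradation genes was 0.11, -0.26 and 0.07 on the vehicle arrays and 0.06, 0.05 and -0.02 on the DPM arrays. That of the sensors and factors was 0.13, -0.10 and 0.06 on the vehicle arrays and -0.10, 0.01 and -0.01 on the DPM arrays.

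**Figure D4:**
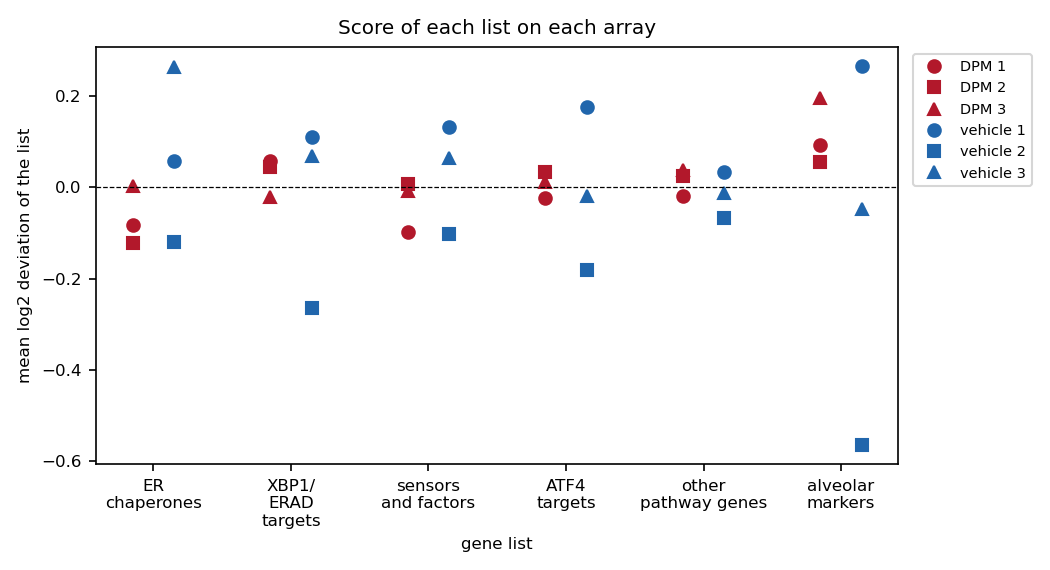
Score of each list (mean log2 deviation of its measured genes, vertical axis) on each array (red DPM, blue vehicle; circle, square and triangle for replicates 1, 2 and 3) for the 4 arms, the other pathway genes and alveolar markers. Vehicle replicate 2 (blue square) is lowest for each list shown except the chaperones, by little for the sensors and factors. It lies at -0.26 for the degradation arm and -0.18 for the ATF4 arm.

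Markers of other cells and of secretory state moved with these scores in part. The 9 alveolar markers measured, milk protein genes among them, had scores of 0.27, -0.57 and -0.05 on vehicle arrays 1 to 3. On the DPM arrays their scores were 0.09, 0.06 and 0.20. The alveolar score was lowest on vehicle replicate 2, as were those of the degradation, sensor and ATF4 arms. So were the scores of the other pathway genes together and of the endothelial list. The fibroblast and basal epithelial scores were instead highest on that array (0.29 and 0.37). For the macrophage list (9 of 9 measured) scores were 0.22, -0.17 and -0.35 on DPM and -0.02, 0.07 and 0.25 on vehicle arrays, highest on vehicle replicate 3, as was the chaperone score. On DPM replicate 3 the macrophage score was its lowest, whereas the chaperone score (0.00) was the highest of the DPM arrays. Of the plasma cell and B cell list, 5 of 11 genes were measured, with scores from -0.16 to 0.13 on DPM and -0.02 to 0.11 on vehicle arrays, and Jchain was below the filter. The fibroblast list (8 of 8) ran from -0.77 to 0.20 on DPM and 0.10 to 0.29 on vehicle arrays, the adipocyte list (3 of 6) from -0.39 to 1.05 and -0.26 to 0.09, the skeletal muscle list (4 of 5) from -0.28 to 0.62 and -0.51 to 0.51, and the hypoxia list (10 of 10) from -0.15 to 0.17 and -0.11 to 0.03. The T cell list (3 of 6 measured) ran from -0.07 to -0.04 on DPM and -0.01 to 0.08 on vehicle arrays, the endothelial list (5 of 5) from -0.09 to 0.28 and -0.18 to 0.03, and the basal epithelial list (6 of 6) from -0.47 to -0.06 and 0.10 to 0.37. The groups did not overlap for the T cell and basal epithelial scores. The part of these cells or states in the results was not tested, and in whole tumours fewer cells of a type and less RNA per cell cannot be told apart. All 7 luminal epithelial markers, which check the labelled tissue, passed the filter. Their scores were 0.01, -0.11 and -0.05 on DPM arrays 1 to 3 and 0.14, -0.07 and 0.07 on vehicle arrays 1 to 3. These were lowest on DPM replicate 2, as was the chaperone score, and highest on vehicle replicate 1, as was the score of all members.

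Other genes of the same pathways were taken from 7 lists with 138 genes, of which 128 were measured. Of these, 79 had the higher and 49 the lower mean in DPM, with a median difference of 0.02, and 0 were called. With vehicle replicate 2 left out, 66 of the 128 had the higher mean, with a median of 0.01. At an unadjusted limma p under 0.05 there were 6 higher and 1 lower, where all genes had 1.68% higher and 2.19% lower. The groups did not overlap for 11 of the 128, 8 higher and 3 lower in DPM, and for 6.97% of all genes tested. The genes named below are the 2 with the smallest p of each list, picked after their values were seen.

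The largest difference in these lists was that of Bhlha15. Bhlha15, encoding the secretory cell factor MIST1 and known as an XBP1 target, measured 10.98, 11.05 and 11.23 on the DPM arrays, against 10.67, 10.20 and 10.31 on the vehicle arrays, without overlap. The difference was 0.69 (SE 0.13, limma adjusted p = 0.817). Derl3, a derlin gene of ER-associated degradation, measured 10.61, 10.42 and 10.36 against 10.17, 10.03 and 10.09, also without overlap, a difference of 0.37 (SE 0.10, limma adjusted p = 0.973). Also in these lists, the apoptosis suppressor gene Tmbim6 and the ubiquitin ligase gene Rnf5 each differed by 0.17 (SE 0.07 and 0.08), without overlap. Of the 19 other degradation genes measured, 13 had the higher mean in DPM (median 0.02), and 10 of 19 (median 0.00) with vehicle replicate 2 left out. Of the 13 other stress transducers, 6 had the higher mean (median -0.01), and 8 of 13 (median 0.04) with vehicle replicate 3 left out.

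The remaining ER folding genes did not share the chaperones' sign throughout. Of 22 measured, 9 had the higher and 13 the lower mean in DPM, with a median of -0.03, which was 0.00 without vehicle replicate 1. Fkbp14, a prolyl isomerase gene for collagen folding, measured 8.86, 9.02 and 8.83 on the DPM arrays, against 9.42, 9.34 and 9.08 on the vehicle arrays, a difference of -0.37 (SE 0.11, limma adjusted p = 1). Its DPM values lay below all vehicle values. Sil1, another nucleotide exchange factor of BiP, differed by 0.21 (SE 0.12). Of the 20 measured genes of the translocon, signal peptidase and signal recognition particle, 15 had the higher mean, with a median of 0.02. With vehicle replicate 2 left out, or with array weights, 8 of the 20 did, with a median of -0.02. Sec11c, a signal peptidase gene, differed by 0.31 (SE 0.19) and Srp68 by -0.29 (SE 0.17).

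Amino acid genes outside the 36 had 16 of 22 members with the higher mean in DPM and a median difference of 0.09, the highest median among these lists with all arrays. With DPM replicate 2 left out this median was 0.04, with DPM replicate 3 left out 0.06, with vehicle replicate 3 left out 0.05, and with neither array numbered 3 it was 0.03. In each of these cases except that of DPM replicate 3, the eIF2 pathway list had a higher median (0.06, 0.06 and 0.04). The aminoacyl-tRNA synthetase list was also higher without DPM replicate 2 (0.049 against 0.040) and without vehicle replicate 3 (0.055 against 0.048). With neither array numbered 3, so was the list of other stress transducers (0.044 against 0.032). Gpt2, a mitochondrial alanine transaminase gene, measured 9.93, 10.09 and 10.40 on the DPM arrays, against 9.71, 9.58 and 9.89 on the vehicle arrays, a difference of 0.42 (SE 0.14). Slc1a5, the glutamine transporter gene, measured 9.80, 9.88 and 9.78 against 9.63, 9.64 and 9.40, a difference of 0.26 (SE 0.10). Neither gene's groups overlapped, and each limma adjusted p was 1. Of 18 aminoacyl-tRNA synthetase genes, known ATF4 targets among them, 13 had the higher mean, with a median of 0.05 (0.02 without DPM replicate 3, 0.10 without DPM replicate 1); Iars differed by 0.21 (SE 0.09) and Qars by 0.11 (SE 0.10). The eIF2 pathway list split evenly, with 7 of 14 higher and a median of 0.00. The count was 13 of 14 without DPM replicate 2 and 4 of 14 without DPM replicate 3; Eif2b1 differed by 0.11 (SE 0.09) and Cebpb by -0.11 (SE 0.09).

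**Figure D5:**
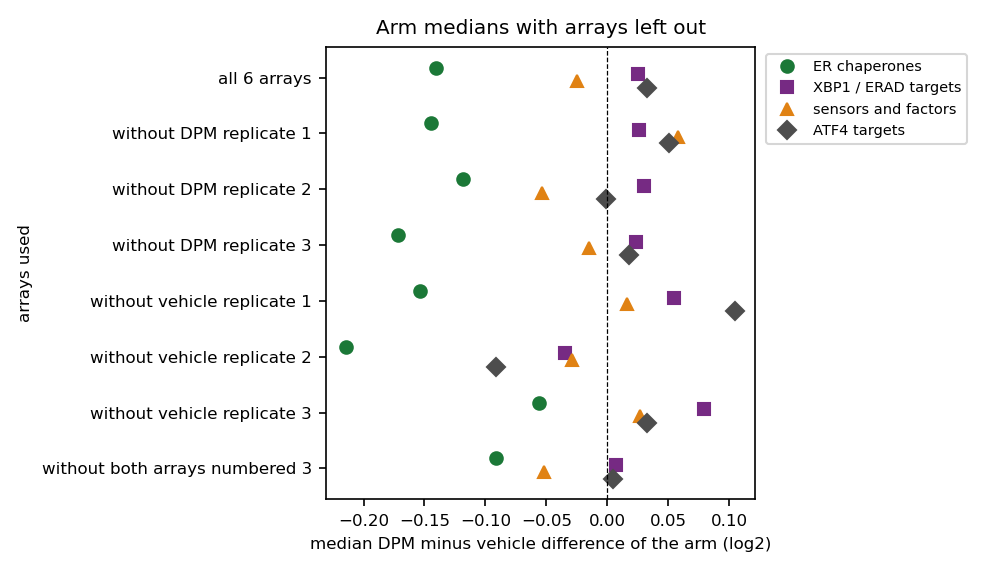
Median DPM minus vehicle difference of each arm (log2, horizontal axis; 1 symbol per arm) with all 6 arrays and with arrays left out (vertical axis). The chaperone median stays below 0, from -0.21 to -0.06, and the medians of the other 3 arms lie on both sides of 0.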

How the data were processed

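The deposited series table holds 1 intensity per probe set and array, linear, 1-colour and rounded to whole numbers, for 35556 probe sets. Per the labels' protocols, biotinylated cRNA came from 100 ng of total RNA of solid tumour portions. The authors' background correction, summarisation and scaling are not given in the sources used here. Deposited medians ran from 270 to 301 and upper quartiles from 717 to 887, highest on the arrays numbered 3, and no 2 arrays were identical. Values under 1 were set to 1 before log2, and arrays were then quantile-normalised. Probe sets naming 1 gene (21789) were used, with symbols updated through Entrez identifiers; 1621 naming several, 1 of them Phgdh, were left out, and 12146 are unnamed here. The dimmest genes, under the 25th percentile of the mean (4985), were dropped. The remaining 14953 entered limma 3.58.1 under R 4.3.3 (lmFit, eBayes with trend, two-sided, Benjamini-Hochberg). The fit was tested on simulated data. The members and lists were chosen with earlier results of these data known. Values on every array are given for 12 core genes and the 3 members of each arm with the smallest p, and for leading genes of other lists; the 2 with the smallest p of each other list are named. The number of arrays limits the precision.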

Additional observations from a re-analysis of the deposited data

How the results depend on the processing

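No gene was called by limma in any of the 18 other settings. These were filtering at the 50th percentile or not at all, centring on medians, leaving arrays unnormalised, averaging probe sets or testing each alone, eBayes in its robust form or with no trend, array weights, an offset of 16 in place of the floor, the replicate block and arrays left out. With the replicate number as a block, 0 genes were called (smallest limma adjusted p = 0.501, 723 genes at an unadjusted p under 0.05 against 578). The labels do not say whether the numbers pair the tumours. Deviations of same-numbered arrays correlated at -0.12, 0.11 and 0.37, and those of differently numbered arrays at -0.32 to 0.22. With 3 arrays per group, these values do not settle whether the numbers pair. Leaving out 1 array, the number called stayed at 0 and the chaperone median ran from -0.21 to -0.06, that of the degradation genes from -0.04 to 0.08, of the sensors and factors from -0.05 to 0.06, of the ATF4 targets from -0.09 to 0.10 and of all members from -0.13 to 0.04. With array weights the medians were -0.15, -0.02, -0.01 and -0.01 for the 4 arms in that order. Of 35 members, 12 (34.3%) differed by more than their standard error, as did 25.2% of all genes tested. By arm these were 7 of 10 chaperones, 1 of 5 degradation genes, 2 of 7 sensors and factors and 2 of 13 ATF4 targets. These 12 kept their sign in all settings in which they were fitted, with the brightest probe set standing for the gene where each was tested alone. The second probe set of Pdia4 had the opposite sign (0.09). Changing the filter, the trend, the robust form or the block, or testing that brightest probe set alone, leaves a member's difference as it was. A sign could change only under the remaining settings. Of the other 23 members, whose sign is not called, 21 changed sign in at least 1 setting.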
